A study of Mus musculus with 2 samples.

Results

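The variable segments of the T cell receptor were the rows whose gene symbol began with Trav, Trbv, Trgv, Trdv or Tcrg-V. There were 178 such genes among the 33696 in the count tables: 130 alpha (Trav), 35 beta (Trbv), 7 gamma (Trgv) and 6 delta (Trdv) segments, and no symbol began with Tcrg-V. They were measured in immune cells of the liver from wild-type C57BL/6J mice by droplet single-cell RNA sequencing with a kit that primes at the 3′ end of transcripts. The treated mice received concanavalin A (ConA), a jack bean lectin mitogenic for T cells, as 1 intravenous injection per week of 10 mg/kg for 3 weeks, and the controls were untreated mice of matched age. Cells carrying CD45, the surface protein shared by leukocytes, were sorted after a Ficoll gradient. Each treatment had 1 library, and the number of mice in each was not given in the sources used here. No test between treatments was therefore possible. Every interval below is a 95% interval that covers counting error within a library and not the spread between mice.

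A T cell assembles each receptor chain by joining a variable segment to joining segments (and to a diversity segment in beta and delta chains) in front of a constant region. Conventional T cells use many alpha and beta segments. Invariant natural killer T (NKT) cells, abundant in mouse liver, carry an alpha chain of Trav11 joined to Traj18, paired mostly with beta chains of Trbv13-2, Trbv29 or Trbv1, and depend on the transcription factor Zbtb16. Mucosal-associated invariant T (MAIT) cells join Trav1 to Traj33. Gamma-delta T cells use gamma and delta chains, and a population that arises in fetal life joins Trgv6 with Trdv4 and can make interleukin 17. ConA is known to cause a liver injury in mice that involves NKT cells.

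The segments on which the main comparisons turn are shown first. The lines below give the last 300 bases of the coding sequence of the NKT alpha segment Trav11, its known beta partner Trbv13-2, the beta segment Trbv20 that differed between the libraries in Cd8b1+ cells, and the delta and gamma segments Trdv4 and Trgv6 that were higher in the ConA library. They are written 5′ to 3′. Capitals mark the stretch from the codon of the conserved cysteine to the end of the segment, which begins the junction that differs between clones.
Trav11: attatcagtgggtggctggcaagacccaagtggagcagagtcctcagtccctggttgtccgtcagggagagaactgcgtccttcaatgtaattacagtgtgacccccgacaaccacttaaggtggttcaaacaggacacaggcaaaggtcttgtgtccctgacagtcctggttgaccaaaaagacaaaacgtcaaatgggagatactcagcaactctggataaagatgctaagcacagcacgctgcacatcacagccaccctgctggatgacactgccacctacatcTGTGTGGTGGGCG
Trbv13-2: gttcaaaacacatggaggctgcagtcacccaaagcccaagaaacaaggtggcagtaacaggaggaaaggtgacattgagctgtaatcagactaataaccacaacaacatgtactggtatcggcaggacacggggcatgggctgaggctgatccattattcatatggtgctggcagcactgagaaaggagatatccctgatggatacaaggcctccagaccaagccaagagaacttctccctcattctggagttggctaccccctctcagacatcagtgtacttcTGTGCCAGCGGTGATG
Trbv20: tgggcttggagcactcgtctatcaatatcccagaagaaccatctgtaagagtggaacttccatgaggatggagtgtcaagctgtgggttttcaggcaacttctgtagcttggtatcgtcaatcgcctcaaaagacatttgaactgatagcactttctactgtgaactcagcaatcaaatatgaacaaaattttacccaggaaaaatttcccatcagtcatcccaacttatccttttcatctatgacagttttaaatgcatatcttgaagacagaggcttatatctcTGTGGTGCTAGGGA
Trdv4: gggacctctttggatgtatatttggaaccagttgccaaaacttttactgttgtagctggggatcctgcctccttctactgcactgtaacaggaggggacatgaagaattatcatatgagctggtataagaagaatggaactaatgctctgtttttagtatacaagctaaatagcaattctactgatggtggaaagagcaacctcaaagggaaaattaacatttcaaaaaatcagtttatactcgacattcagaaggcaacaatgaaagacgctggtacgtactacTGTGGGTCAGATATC
Trgv6: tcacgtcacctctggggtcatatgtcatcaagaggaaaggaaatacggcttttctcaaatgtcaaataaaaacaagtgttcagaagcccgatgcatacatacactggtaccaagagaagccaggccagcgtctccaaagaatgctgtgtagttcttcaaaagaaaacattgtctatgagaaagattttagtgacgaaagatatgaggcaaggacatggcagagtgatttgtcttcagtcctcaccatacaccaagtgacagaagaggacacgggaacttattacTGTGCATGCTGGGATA
These sequences come from GENCODE M21 on the GRCm38 build, with the genes matched by their Ensembl identifiers. The submitters' processing notes name mm39 for the count tables, from which no coordinates were taken. On GRCm38 Trav11 lies at chr14:53519303-53519859, Trdv4 at chr14:54074905-54075515, Trbv13-2 at chr6:41121396-41121832, Trbv20 at chr6:41188273-41188977 and Trgv6 at chr13:19190356-19190929, all on the plus strand. In this annotation 144 of the 178 members are variable genes and 34 are pseudogenes. The genes gave 3818 and the pseudogenes 20 of the transcripts counted.

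T cells were taken as cells with at least 1 unique molecular identifier (UMI, which marks a captured transcript) of Cd3d, Cd3e or Cd3g, the genes of the CD3 signalling chains. These Cd3+ cells numbered 4486 of 15264 cells in the untreated library (29.4%) and 8990 of 15262 in the ConA library (58.9%), with medians of 3424.5 and 3451.5 UMIs. A UMI of a receptor constant gene was present in 72.4% and 82.2% of them. They also held UMIs of other lineages: Ncr1, a receptor of natural killer (NK) cells, in 10.5% and 10.1%, the B cell gene Cd79a in 977 and 1889 cells, and the neutrophil gene S100a8 in 92.1% and 62.2%. Free RNA, doublets and true expression of these genes cannot be told apart cell by cell. The libraries shared 82 cell barcodes.

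Variable segments, which lie far from the 3′ end at which the kit primes, were captured sparsely. Cd3+ cells gave 1167 segment UMIs in the untreated and 2671 in the ConA library, and a segment UMI was found in 805 cells (17.9%) and 1746 cells (19.4%). Of the 178 members, 84 were detected in the untreated and 101 in the ConA library. Over both libraries 75 members had no UMI, 73 had 1 to 19 and 30 had at least 20. Alpha segments were seen in 4.90% and 4.63% of Cd3+ cells, beta segments in 6.82% and 6.03%, gamma segments in 6.78% and 7.91%, and delta segments in 1.43% and 3.62%. Only the delta family had intervals that did not overlap between the libraries. Per 100 UMIs of the matching constant genes, delta segments gave 7.83 UMIs in the untreated and 19.8 in the ConA library, gamma segments 20.4 and 18.3, alpha segments 4.12 and 3.79, and beta segments 1.79 and 1.68.

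Members with no sequence of their own were not seen. Of the 130 alpha segments, 40 had no stretch of 90 bases that was absent from every other variable segment, and none of the 40 was detected. A further 66 alpha segments were unique in some stretches, of which 53 were detected, and 24 were unique throughout, of which 16 were detected, so detection did not increase further with uniqueness. All 35 beta segments were unique throughout and 22 were detected in each library. Trav11 was unique in only 0.39% of its 254 stretches, because Trav11d matched it at 342 of 343 aligned positions with no mismatch and 1 end gap. Trav11d had 0 UMIs, so reads of this pair may be counted under Trav11 or not counted at all, and Trav11 below stands for both. The handling of such pairs, not given in the sources used here, could change these counts.

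Cells without CD3 transcripts gave a background level, in which free RNA, doublets, missed CD3 transcripts and true expression were not separated. Among cells with Cd79a and no Cd3 UMI, alpha and beta segments were each found in 0.12% of untreated and 0.22% of ConA cells, at medians of 2593 and 3006 UMIs per cell. Gamma segments were found there in 0.15% and 0.18% and delta segments in 0.27% and 0.73%. Delta segments differed from the rest in cells with Ncr1 and no Cd3 UMI, where 7.52% of 878 untreated and 9.96% of 713 ConA cells had one, against 0.46% and 1.26% for gamma segments. The delta constant gene Trdc was detected in 13.7% and 10.9% of these Ncr1+ cells, so neither Trdc nor a delta segment marks a gamma-delta T cell on its own in these libraries.

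Most segments were at like levels in both libraries, and the largest differences were in Trdv4 and Trgv6. Among the 30 members with at least 20 UMIs, 3 were at least 2-fold higher in CPM (UMIs per 1000000 UMIs summed over the library's Cd3+ cells) in ConA cells (Trdv4, Trgv6 and Trbv17) and 1 was at least 2-fold lower (Trav10). Over the 15004 genes with as many UMIs, 6.00% were at least 2-fold higher and 6.44% at least 2-fold lower. The median log2 ratio of the 30 members was -0.15, and that of all those genes 0.07. Trbv17, with 5 and 19 UMIs, and Trav10, with 11 and 10, lay just past 2-fold, and both of their intervals spanned no difference. Among members with at least 50 UMIs, Trbv1 was the furthest lower in the ConA library. It was detected in 0.74% of untreated and 0.43% of ConA Cd3+ cells, with overlapping intervals. Its log2 ratio in CPM ran from -2.99 to -0.20 over 12 alternative settings.

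**Figure D1:**
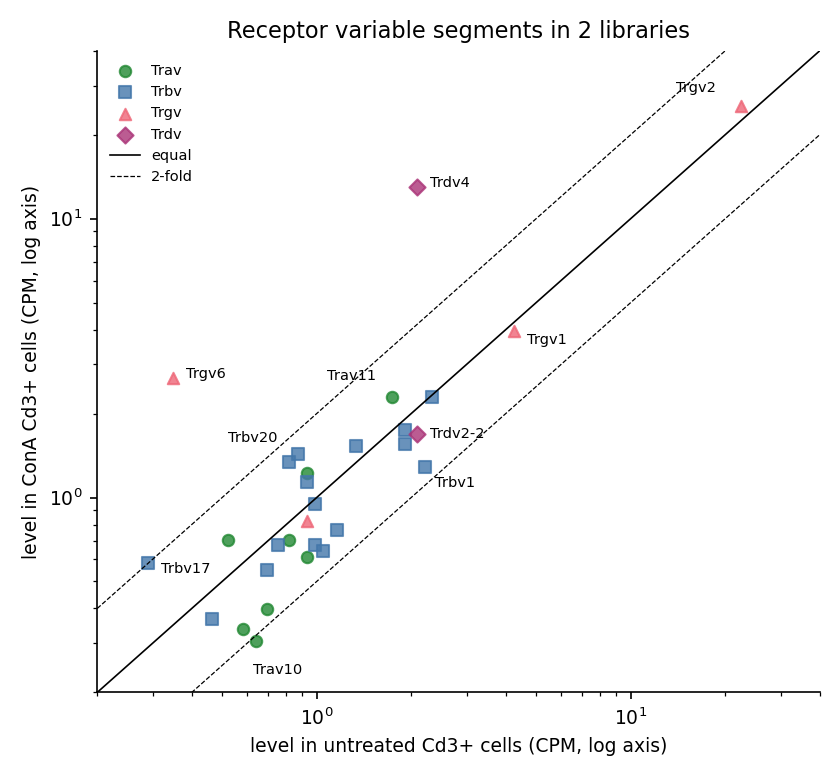
Level of each of the 30 receptor variable segments with at least 20 UMIs in untreated (x axis) and ConA (y axis) Cd3+ cells, in CPM on log axes. Each point is a segment, coloured by family, with lines for equal levels and for 2-fold. Trdv4 and Trgv6 lie above the upper 2-fold line, apart from the other members.

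The NKT alpha segment Trav11 was the most frequent alpha segment over both libraries, and its cells carried the genes of NKT cells. It had 30 UMIs in 24 untreated cells and 75 UMIs in 67 ConA cells, or 1.74 and 2.29 CPM, a log2 ratio of 0.40 (interval -0.23 to 1.06) that spans no difference. Each cell was next assigned the alpha segment with the most UMIs in it. Among Zbtb16+ cells with an alpha call, Trav11 made 16 of 34 calls in the untreated library (47.1%, 29.8 to 64.9) and 53 of 93 in the ConA library (57.0%, 46.3 to 67.2). Among cells with no Zbtb16 UMI it made 5 of 176 calls (2.84%) and 13 of 310 (4.19%). The split by Zbtb16 was thus far wider than the difference between the libraries, whose intervals overlap.

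Removing cells with Trdc from the Zbtb16+ cells left Trav11 at 15 of 29 calls (51.7%) in the untreated and 53 of 88 (60.2%) in the ConA library. The next alpha segment there, Trav10, made 2 and 3 calls. Cd8b1+ Cd4- cells, defined without Zbtb16 and Trdc, held no Trav11 call among 58 and 117, which allows shares of up to 5.17% and 2.56%. Cells with none of Zbtb16, Trdc, Cd4 and Cd8b1 held 4 of 46 and 10 of 88 Trav11 calls. Zbtb16 was also detected outside Cd3+ cells, where free RNA, doublets and true expression cannot be told apart. A Zbtb16 UMI was present in 12.9% and 20.5% of Cd3+ cells. Among cells with no Cd3 UMI it was present in 1.91% and 4.22% of Cd79a+ cells, in 5.97% and 6.21% of cells high in S100a8, and in 8.09% and 13.0% of Ncr1+ cells.

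Trav11+ cells had a median of 5257 UMIs in the untreated and 3637 in the ConA library, the other Cd3+ cells 3415 and 3448, and genes of the NKT list were detected in them more often than in the other Cd3+ cells. Zbtb16 was detected in 70.8% of untreated and 80.6% of ConA Trav11+ cells, against 12.6% and 20.1% of the others, and its level, which allows for depth, was 296 and 699 CPM against 75.0 and 146 CPM. Cxcr6, a chemokine receptor of liver NKT cells, was detected in 79.2% and 85.1%, against 20.1% and 36.5%, at 542 and 608 CPM against 117 and 244 CPM. The NK lectin receptor Klrb1c was in 75.0% and 59.7%, against 21.8% and 20.7%. All 3 genes were thus detected more often in Trav11+ cells of both libraries. Il2rb, the beta chain of the receptors for interleukins 2 and 15, was in 91.7% and 89.6%, against 43.7% and 55.3%. The type 1 regulator Tbx21 was in 54.2% and 64.2%, against 19.0% and 33.6%, and Gata3 in 37.5% and 53.7%, against 16.2% and 24.9%. The cytokine gene Il4 was detected in 41.7% and 25.4% of Trav11+ cells and in 4.6% and 5.5% of the others. Ifng was detected in 29.2% and 32.8%, against 8.2% and 11.8%, and the chemokine Xcl1 in 62.5% and 53.7%, against 19.9% in each library. By CPM, which allows for the greater depth of untreated Trav11+ cells, several of these differences were smaller there. Xcl1 stood at 288 against 252 CPM in the untreated and at 533 against 167 CPM in the ConA library. Tbx21 stood at 152 against 90.03 and 339 against 170, Gata3 at 102 against 60.3 and 232 against 101, and Ifng at 59.3 against 31.1 and 161 against 46.1 CPM. These 4 genes were thus under 2-fold higher in untreated Trav11+ cells, while Il4 stood at 161 against 18.5 CPM there and 103 against 20.5 CPM in the ConA library.

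Ccr7, a chemokine receptor of recirculating naive T cells, ran the other way in Trav11+ cells. It was detected in 4.2% and 3.0% of them, against 26.4% and 19.6% of the other Cd3+ cells. Cd8b1 was seen in 0 untreated and 2 ConA Trav11+ cells, and Ncr1 in 1 and 5. Of the 16 genes in the NKT list, 5 were at least 2-fold higher in CPM and 4 at least 2-fold lower in untreated Trav11+ cells, beside 10.9% and 36.5% of all genes. In the ConA library 8 were higher and 3 lower, beside 8.87% and 31.7%. No gene of the type 17 list was at least 2-fold higher in Trav11+ cells of either library. Traj18, the joining segment of the invariant chain, was detected in 2.07% of untreated and 3.63% of ConA Zbtb16+ cells, against 0.49% and 1.04% of the rest, and in 1 and 5 of the Trav11+ cells.

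Among the beta segments known from NKT cells, Trbv13-2 made a larger share of calls in Zbtb16+ cells in both libraries, with intervals that narrowly overlap. The split was less sharp than for Trav11, and Trbv1 and Trbv29 did not stand apart in both libraries. Trbv13-2 made 19.6% of the beta calls of Zbtb16+ cells in the untreated and 16.0% in the ConA library, against 6.97% and 7.16% in Zbtb16- cells. Trbv29 made 12.5% and 8.80%, against 2.87% and 7.41%, and Trbv1 made 10.7% and 8.80%, against 10.7% and 6.91%. Of these, Trbv13-2 was more than 2-fold more frequent with Zbtb16 in both libraries and Trbv29 in the untreated library only, whereas Trbv1 made the same share on either side in untreated cells. The Trbv13-2 intervals with and without Zbtb16 were 10.2 to 32.4 and 4.11 to 10.9 in the untreated library. In the ConA library they were 10.06 to 23.6 and 4.85 to 10.12. Those of Trbv29 overlap in both libraries too. With each cell thinned to 1000 UMIs and gates redrawn on the thinned counts, Zbtb16+ cells fell from 579 to 207 and from 1847 to 782. Cd3+ cells that lost their Zbtb16 UMIs then counted as Zbtb16-. The direction for Trbv13-2 turned, at 0 of 4 calls with Zbtb16 and 6 of 68 without (8.82%) in the untreated library. In the ConA library it made 1 of 16 (6.25%) and 11 of 116 (9.48%). The segments Trbv13-2, Trbv29 and Trbv1 together made 24 of 56 Zbtb16+ calls in the untreated library (42.9%, 29.7 to 56.8) and 42 of 125 in the ConA library (33.6%, 25.4 to 42.6). In Zbtb16- cells they made 50 of 244 (20.5%) and 87 of 405 (21.5%). The Zbtb16+ intervals of the libraries overlap, and in the ConA library the Zbtb16- interval (17.6 to 25.8) also overlaps the Zbtb16+ one.

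**Figure D2:**
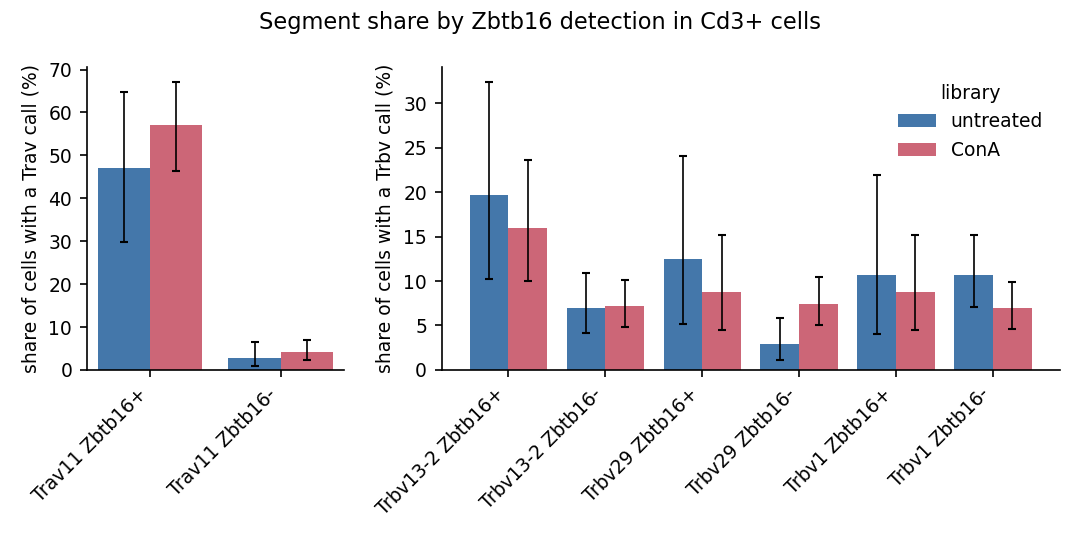
Share of Trav calls (Trav11) and of Trbv calls (Trbv13-2, Trbv29, Trbv1) in Zbtb16+ and Zbtb16- Cd3+ cells of the untreated and ConA libraries, in percent of cells with a call of that family. Bars are shares and lines are 95% intervals for counting error. Trav11 stands at 47.1% and 57.0% with Zbtb16 and at 2.84% and 4.19% without it.

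Beta use as a whole was narrower in Zbtb16+ cells when every call was used. The effective number of beta segments, which would be 10 for 10 equally used segments, was 9.69 in untreated and 11.2 in ConA Zbtb16+ cells, against 15.9 and 14.9 in Zbtb16- cells. When a call needed 2 UMIs the order turned in the ConA library, with 18 in Zbtb16+ and 10.5 in Zbtb16- cells, on 9 and 21 calls. Among Zbtb16+ Trdc- cells the leading segment was Trbv13-2, with 10 of 54 calls and 18 of 117, followed by Trbv12-2 with 9 and 15. Trbv13-2+ cells had Zbtb16 in 40.6% and 40%, against 12.7% and 20.4% of the other Cd3+ cells, and Cxcr6 in 56.2% and 70.9%. Of the 16 genes in the NKT list, 5 were at least 2-fold higher in Trbv13-2+ cells of each library, beside 9.95% and 7.80% of all genes, and 3 and 2 were at least 2-fold lower, beside 32.7% and 32.1%. Those Zbtb16 shares lie well under the 70.8% and 80.6% of Trav11+ cells. Alpha and beta segments were called together in just 17 untreated and 36 ConA cells. Trav11 was called with Trbv12-2 in 2 ConA cells and with Trbv13-2 and Trbv13-3 in 1 each, too few to rank its partners.

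Segments of MAIT cells were close to undetected. Trav1 had 1 UMI in each library, and Traj33 was seen in 0 untreated cells and 1 ConA cell. Trbv19, a frequent beta partner in mouse MAIT cells, made 1.79% and 1.60% of the beta calls of Zbtb16+ cells and 4.51% and 4.44% of those of Zbtb16- cells. At this capture rate the frequency of MAIT cells was not measurable from the segments.

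Conventional alpha use was spread over many segments. Beside Trav11, the alpha segments with the most UMIs were Trav3-3, Trav14d-3-dv8, Trav6-7-dv9 and Trav16. Trav3-3 made 11 of 210 calls in untreated Cd3+ cells (5.24%) and 32 of 403 in ConA cells (7.94%), Trav14d-3-dv8 11 (5.24%) and 21 (5.21%), Trav6-7-dv9 10 (4.76%) and 16 (3.97%), and Trav16 9 (4.29%) and 19 (4.71%). All of their intervals overlap between the libraries. In Cd8b1+ Cd4- cells the leading alpha segment was Trav5-4 in the untreated library, with 6 of 58 calls, and Trav3-3 in the ConA library, with 14 of 117 (12.0%). In Cd4+ Cd8b1- cells Trav14d-3-dv8 made 4 of 51 and 6 of 80 calls.

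Beta use in Cd8b1+ Cd4- cells, the gate of CD8 T cells, was not the same in the libraries, most of all for Trbv20. Trbv20 made none of 80 beta calls in the untreated library, which allows a share of up to 3.75%, and 25 of 173 in the ConA library (14.5%, 9.58 to 20.6), where it was the leading segment. Set against the limit that a count of 0 allows, the ConA share is 3.85-fold higher, which leaves out the counting error of the 25 ConA calls. With that error included, the interval of the log2 ratio begins at 1.54 and has no upper end. Trbv1 ran the other way, with 10 of 80 calls in the untreated library (12.5%) and 3 of 173 in the ConA library (1.73%), a log2 ratio of -2.85 (interval -5.35 to -0.89). Trbv29 made 2 of 80 (2.50%) and 15 of 173 (8.67%), a log2 ratio of 1.79 whose interval of -0.31 to 4.97 spans no difference. Trbv12-2 and Trbv13-1, next in the ConA library, made 10.0% and 12.7%, and 6.25% and 11.0%.

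Over all Cd3+ cells Trbv20 made 10 of 300 calls (3.33%) and 41 of 530 (7.74%), a log2 ratio of 1.21 (interval 0.19 to 2.38), so untreated Trbv20 calls existed but lay outside the CD8 gate. The CD8 gate itself differed between the libraries. Ccr7 was detected in 54.8% of untreated and 27.3% of ConA Cd8b1+ Cd4- cells, Tbx21 in 10.5% and 38.0%, Cxcr6 in 17.8% and 38.4%, and the granzyme gene Gzma in 17.4% and 32.9%. A smaller share of this gate thus held Ccr7 in the ConA library, and a larger share held effector genes. Of the 25 ConA cells called Trbv20, 52% had Tbx21 and 28% Il7r, the interleukin 7 receptor chain, against 39.2% and 51.4% of the 148 cells with another beta call, with overlapping intervals. Other genes of activated cells went both ways. Among them, Gzma was in 40% against 31.8% and Il2rb in 76% against 65.5%. Cxcr6 was in 40% against 41.2%, Ifng in 8.0% against 15.5% and Xcl1 in 4.0% against 14.2%. The intervals of each of these genes overlap too. Whether the 25 cells share a clone could not be read from these data, since the junction is not in the count tables, and with 1 library per treatment a difference between mice and one between treatments cannot be told apart.

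**Figure D3:**
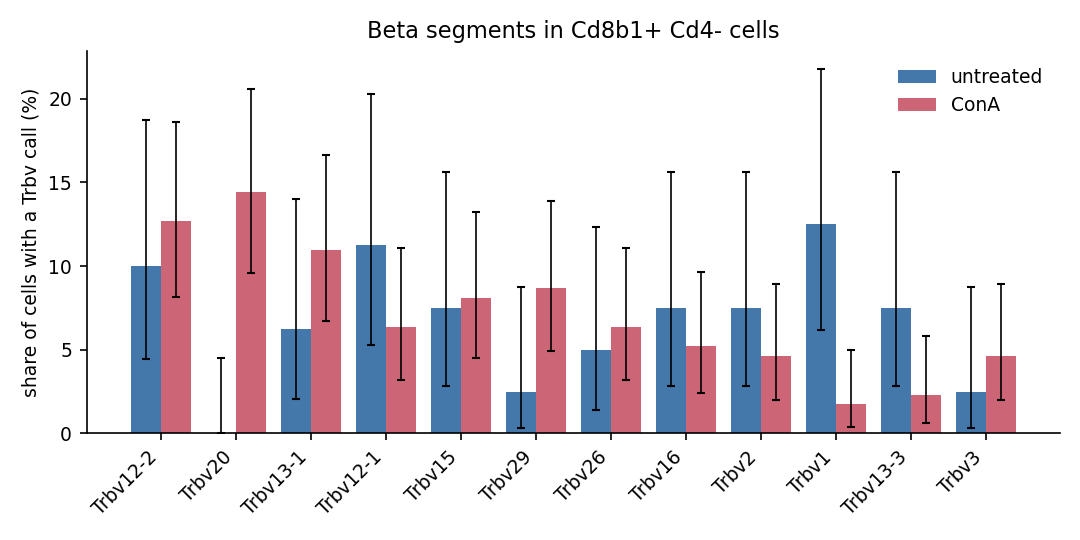
Share of each beta segment among Cd8b1+ Cd4- cells with a beta call, in percent, for segments with at least 10 calls over both libraries (80 untreated and 173 ConA calls). Bars are shares and lines are 95% intervals for counting error. Trbv20 is at 0 in the untreated library and at 14.5% in the ConA library, and Trbv1 is at 12.5% and 1.73%.

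Beta use in Cd4+ Cd8b1- cells was led by the same segments in both libraries. Trbv2 made 14 of 70 calls in the untreated library (20%), ahead of Trbv1 and Trbv12-2 with 7 each. In the ConA library Trbv1 made 15 of 95 (15.8%), Trbv2 13 and Trbv12-2 11. Trbv1 at 10.0% and 15.8% in these cells thus did not share the pattern of the CD8 gate, with a log2 ratio of 0.66 (interval -0.72 to 2.19). In cells with none of the gate genes Trbv12-2 led the untreated library with 11 of 80 calls and Trbv13-2 the ConA library with 14 of 99.

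The delta segment Trdv4 showed the largest difference in CPM between the libraries of the 178 segments. It had 36 UMIs in 31 untreated cells (0.69% of Cd3+ cells) and 426 UMIs in 274 ConA cells (3.05%), or 2.09 and 13.0 CPM. The ratio was 6.23-fold, a log2 ratio of 2.64 (interval 2.15 to 3.17). Trdv2-2, the other delta segment seen in both libraries, had 36 and 55 UMIs, or 2.09 and 1.68 CPM. Trdv4 thus equalled Trdv2-2 in untreated cells and exceeded it in ConA cells. Among Trdc+ cells Trdv4 made 14 of 30 delta calls in the untreated library (46.7%) and 201 of 220 in the ConA library (91.4%), while Trdv2-2 made 16 (53.3%) and 14 (6.36%). A Trdv4 UMI was present in 4.93% of untreated and 25.4% of ConA Trdc+ cells. After each cell was thinned to 1000 UMIs it was in 1.55% of 129 and 18.0% of 388 Trdc+ cells. Thinning left out 182 and 305 shallower Cd3+ cells. Gates were redrawn on the thinned counts, which left 2912 and 6244 Cd3+ cells. Trdv1, Trdv3 and Trdv5 had 0 UMIs in the untreated and 4, 1 and 5 in the ConA library, and Trdv2-1 had none in either.

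Cells with the NK gene Ncr1 accounted for much of the untreated Trdv4 signal, and the difference between libraries was larger in cells without it. This split was chosen after the values were seen. Among Cd3+ cells with no Ncr1 UMI, Trdv4 was found in 9 of 4017 untreated (0.22%) and 209 of 8086 ConA cells (2.58%), 20-fold in CPM (log2 ratio 4.32, interval 3.38 to 5.46). Among Cd3+ cells with an Ncr1 UMI it was found in 22 of 469 (4.69%) and 65 of 904 (7.19%), 1.75-fold in CPM (log2 ratio 0.80, interval 0.16 to 1.49). Ncr1+ cells with no Cd3 UMI had Trdv4 at like shares, in 34 of 878 (3.87%) and 45 of 713 (6.31%), with intervals that overlap those of the Ncr1+ Cd3+ cells. In Cd79a+ cells with no Cd3 UMI the share was 0.05% and 0.37%. In cells with Trdc and no Ncr1, Trdv4 was found in 8 of 206 (3.88%) and 192 of 667 (28.8%).

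**Figure D4:**
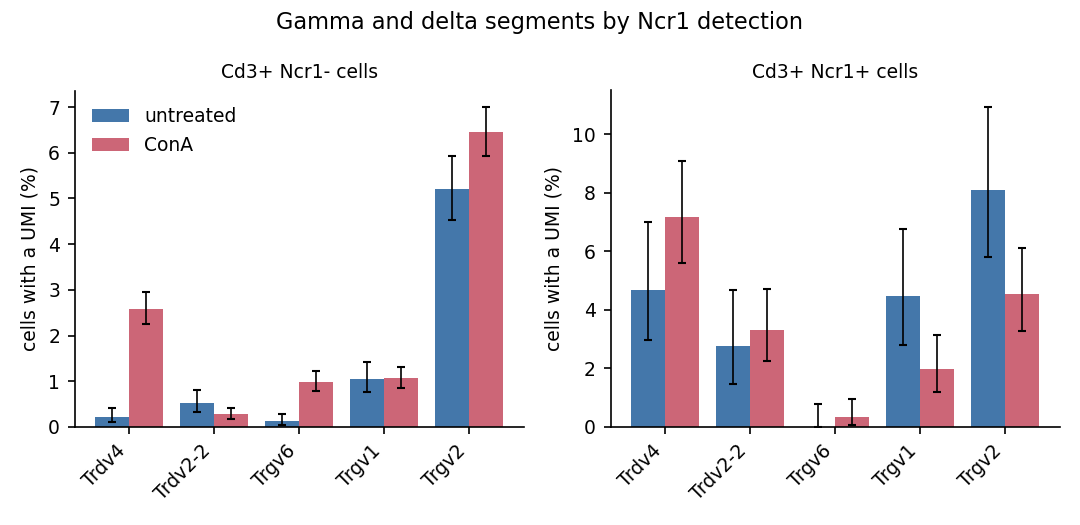
Share of Cd3+ cells with a UMI of each gamma or delta segment, in percent, for cells without (left) and with (right) an Ncr1 UMI in the untreated and ConA libraries. Bars are shares and lines are 95% intervals for counting error. Trdv4 is at 0.22% and 2.58% in cells without Ncr1 and at 4.69% and 7.19% in cells with it.

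The cells that carried Trdv4 expressed different genes in the libraries. Their median depth was 5093 UMIs in the untreated and 4029 in the ConA library. In the untreated library 71.0% of the 31 Trdv4+ cells had Ncr1, 87.1% Klrb1c and 67.7% Gzma, against 23.7%, 29.2% and 34.3% of the 274 ConA Trdv4+ cells. Genes of interleukin 17 producing cells stood the other way. Scart1, a scavenger receptor of type 17 gamma-delta cells, was in 12.9% of untreated and 69.0% of ConA Trdv4+ cells, against 0.8% and 5.0% of the other Cd3+ cells, at 309 and 1387 CPM against 4.75 and 38.6 CPM. The interleukin 1 receptor Il1r1 was in 12.9% and 62.4%, and the interleukin 23 receptor chain Il23r in 12.9% and 53.3%. The transcription factors Maf and Sox13 were in 32.3% and 75.5%, and in 3.2% and 41.2%, and the kinase gene Blk was in 12.9% and 66.4%. Zbtb16 was in 12.9% and 60.6%, against 12.9% and 20.5% of all Cd3+ cells. These genes were more frequent in the ConA library outside this set too. Among Cd3+ cells without a Trgv6 UMI, which include most Trdv4+ cells, Il1r1 was in 0.76% and 6.04% and Il23r in 0.56% and 4.36%. Maf was in 17.8% and 24.0% of them, Sox13 in 0.11% and 2.18%, and Blk in 6.54% and 12.0%. Il17a itself was detected in 2 untreated (6.5%) and 47 ConA (17.2%) Trdv4+ cells, against 0.8% of the other ConA cells, and Il17f in 1 and 3.

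Of the 12 genes of the type 17 list that were found, 8 were at least 2-fold higher in CPM and 2 lower in untreated Trdv4+ cells than in the other Cd3+ cells, beside 11.3% and 31.8% of all genes. In the ConA library 9 were higher and none lower, beside 7.37% and 18.0%. Split by Ncr1, the ConA Trdv4+ cells formed contrasting sets. Of the 209 without Ncr1, 87.6% had Scart1, 79.9% Il1r1, 68.4% Il23r, 22.0% Il17a and 18.2% Gzma. Of the 65 with Ncr1, 9.2% had Scart1, 6.2% Il1r1, 4.6% Il23r, 1.5% Il17a and 86.2% Gzma. The untreated cells showed the same contrast in small numbers: Scart1 was in 4 of 9 without Ncr1 and in none of 22 with it, which allows a share of up to 13.6%. Trdc was detected in 91.9% of ConA Trdv4+ cells without Ncr1 and in 15.4% of those with it.

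**Figure D5:**
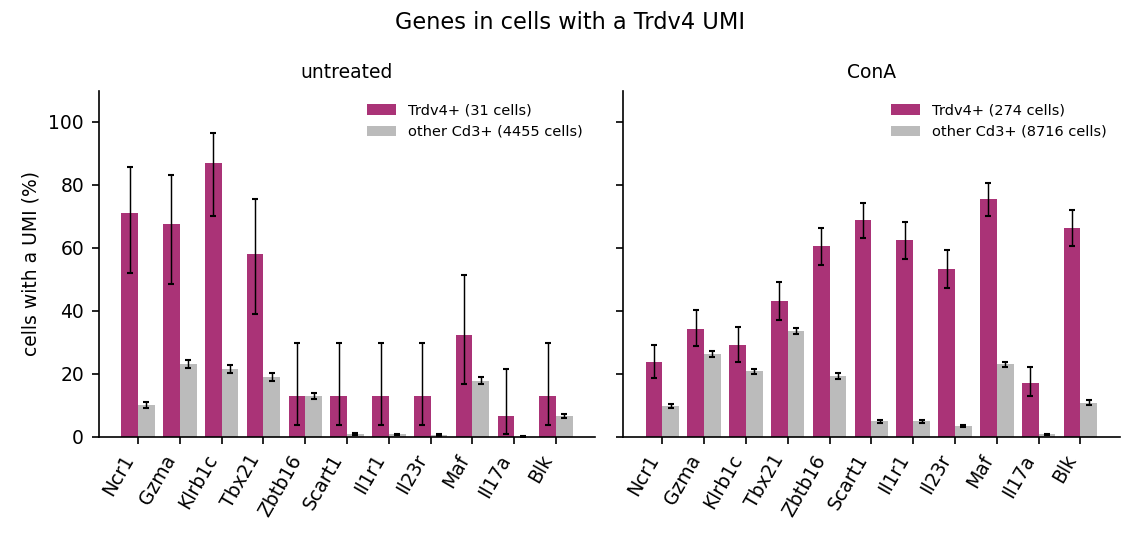
Share of cells with a UMI of each gene, in percent, in Trdv4+ cells and in the other Cd3+ cells of the untreated (left, 31 Trdv4+ cells) and ConA (right, 274 Trdv4+ cells) libraries. Bars are shares and lines are 95% intervals for counting error. Untreated Trdv4+ cells are high in Ncr1, Gzma and Klrb1c, and ConA Trdv4+ cells in Scart1, Il1r1, Il23r, Maf, Blk and Zbtb16.

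The gamma segment Trgv6 differed in the same direction as Trdv4. It had 6 UMIs in 5 untreated cells and 88 UMIs in 83 ConA cells, or 0.349 and 2.69 CPM, a ratio of 7.72-fold (log2 ratio 2.95, interval 1.77 to 4.43). Unlike Trdv4 it was near absent from NK cells, with 0 of 878 and 1 of 713 Ncr1+ Cd3- cells. Among Trdc+ cells a Trgv6 UMI was found in 5 of 284 (1.76%, 0.57 to 4.06) and 67 of 795 (8.43%, 6.59 to 10.6). After thinning it was found in 1 of 129 and 18 of 388, with overlapping intervals. Trgv6 made 5 of 78 gamma calls (6.41%) and 36 of 233 (15.5%) there, also with overlapping intervals. Calls leave out cells in which another gamma segment had as many or more UMIs. The ConA Trgv6+ cells had Scart1 in 81.9%, Zbtb16 in 75.9%, Il1r1 in 73.5%, Trdc in 80.7% and Ncr1 in 3.6%. Scart1, Zbtb16 and Il1r1 were in 87.6%, 71.8% and 79.9% of ConA Trdv4+ cells without Ncr1. Of the 12 type 17 genes, 8 were at least 2-fold higher and 2 lower in ConA Trgv6+ cells, beside 9.63% and 29.7% of all genes. In the 5 untreated cells 6 were higher and 5 lower, beside 16.1% and 64.4%. Trgv6 and Trdv4 were called in the same cell in 26 ConA cells.

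Trgv2 was the most abundant variable segment of all 178 and was not limited to Trdc+ cells. It had 387 and 828 UMIs in 247 and 563 cells, 22.5 and 25.3 CPM, and made 79.4% and 77.3% of gamma calls. The log2 ratio was 0.17 (interval from just under 0 to 0.35). Trgv2 was detected in 21.1% and 24.3% of Trdc+ cells, in 16.3% and 13.3% of Zbtb16+ Trdc- cells, and in 3.71% and 3.40% of Zbtb16- cells. Cells with Trgv2 had the alpha constant gene Trac in 72.5% and 63.2%, Trdc in 24.3% and 34.3%, Cxcr6 in 66.4% and 74.8%, and the gamma constant gene Trgc2 in 76.1% and 65.9%, against 5.5% and 6.7% of the other Cd3+ cells. Alpha constant transcripts were thus seen in more Trgv2+ cells than delta constant ones, and 4 untreated and 13 ConA cells were called for both Trgv2 and Trav11. Trac was also found in 41.5% of untreated and 36.0% of ConA Trdc+ cells, so it did not mark an alpha-beta T cell on its own. Of the 12 type 17 genes, 7 in the untreated and 9 in the ConA library were at least 2-fold higher in Trgv2+ cells, beside 5.36% and 4.68% of all genes, and 1 and 0 lower, beside 16.8% and 15.0%. A gamma transcript on its own therefore did not mark a gamma-delta T cell here.

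Over all Cd3+ cells the remaining gamma segments were at like levels or too low to compare. Trgv1 had 73 and 129 UMIs, or 4.24 and 3.95 CPM, and made 25.6% and 15.9% of gamma calls in Trdc+ cells. In Ncr1+ Cd3+ cells it was lower in the ConA library, at 13.1 and 5.92 CPM (log2 ratio -1.14, interval -2.06 to -0.24). Trgv2 was lower there too, at 30.7 and 15.4 CPM (log2 ratio -0.99, interval -1.56 to -0.44), and in cells without Ncr1 it was higher, at 21.4 and 26.5 CPM (log2 ratio 0.31, interval 0.12 to 0.50). Trgv4 had 16 and 27 UMIs, or 0.930 and 0.826 CPM. Trgv3 had 3 and 14, Trgv5 1 and 9, and Trgv7 1 and 2 UMIs. Their counts allow no order between the libraries. Gamma and delta segments were called together in 14 untreated and 103 ConA cells. The most frequent pair was Trgv2 with Trdv4, in 7 and 60 cells, ahead of Trgv6 with Trdv4 and of Trgv1 with Trdv4, which was found in 11 ConA cells.

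Cells with UMIs of more than 1 segment of a family were rare for beta chains and common for gamma chains. They numbered 8 of 306 and 15 of 542 cells for Trbv, and 31 of 304 (10.2%) and 83 of 711 (11.7%) for Trgv. Trgv1 with Trgv2 was the leading combination, in 21 and 37 cells, followed in the ConA library by Trgv6 with Trgv2 in 27. Trgv1 and Trgv2 are alike at 94.9% of aligned positions, whereas Trgv6 and Trgv2 are alike at 51.6%. The gamma call of such a cell is the segment with more UMIs.

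Alpha calls in Trdc+ cells were few and were led by different segments in the libraries. Segments whose names carry dv can join to either the alpha or the delta chain. In untreated Trdc+ cells Trav12-3 made 6 of 23 alpha calls (26.1%), Trav15d-1-dv6d-1 4 (17.4%) and Trav15-1-dv6-1 2. In ConA Trdc+ cells Trav16 and Trav3-3 made 4 of 22 calls each, Trav15d-1-dv6d-1 2 and Trav12-3 none, which allows a share of up to 13.6%. Trav12-3 had 10 UMIs in untreated and 2 in ConA Cd3+ cells. With 23 and 22 calls, the counting intervals of Trav12-3 overlap.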

How the data were processed

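Single-cell 3′ libraries (10x kit 3.1, per the labels' protocols) were made from 1 untreated and 1 ConA sample of sorted liver CD45+ cells. The deposited values are UMI counts per gene and barcode. The matrix header names Cell Ranger 8.0.1, whereas version 6.0.1 stands, with Seurat 4.3.0 and mm39, in the submitters' processing notes. The treatment of reads from segments that share sequence, not given in the sources used here, could lower their counts. The feature and barcode lists as deposited hold names only, with no measured value.

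From 18088 and 18762 barcodes, those with 500 or more UMIs, 300 or more genes and a mitochondrial share of UMIs up to 10% were kept (17632 and 17767). Doublets were scored against simulated pairs (2 per cell, 2000 variable genes, 50 neighbours), and 2368 and 2505 were removed (13.4% and 14.1%). The rate was 0.8% per 1000 barcodes times the share of simulated pairs that joined cells of different clusters. Total UMIs of Cd3+ cells were 17213158 and 32684404. A gate needed 1 UMI, and where cells were thinned the gates were redrawn on the thinned counts. The gates were Trdc+, then Zbtb16+ Trdc-, and among the rest Cd4+ Cd8b1-, Cd8b1+ Cd4-, both or neither. A cell was called for the segment with the most UMIs of its family, and ties were left out. Shares have exact Clopper-Pearson intervals and ratios exact conditional Poisson intervals, both at 95%. A count of 0 was given the limit of 3 counts. The effective number is the inverse of the unbiased Simpson index.

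The members and gene lists were chosen with earlier results of these data known. Segments named were Trav11, Trbv13-2, Trbv29, Trbv1, Trbv19, Trav1 and Trdv4, all detected gamma and delta segments, the 5 most abundant alpha and beta segments, the 5 largest log2 differences per direction among members with at least 50 UMIs (CPM plus 5), and the 3 leading alpha and beta segments of a gate. Trbv17 was named, and cells were split by Ncr1, after the values were seen. Of the 14 symbols in the type 17 list, 12 were found, and the other 2 are older symbols of genes in it. Values of 2 genes of these lists are not reported here. The segment calls were tested on simulated cells that each held UMIs of a true beta segment. That setting is easier than these data, where 270 of 306 and 500 of 542 cells with a beta segment had 1 UMI. It does not cover cells whose only segment UMI is free RNA. Settings were varied in 15 planned ways and 2 added ones. The software was Python 3.11.15, numpy 2.4.6, scipy 1.17.1, pandas 2.3.3, scikit-learn 1.9.0, Biopython 1.88 and matplotlib 3.10.9.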

Additional observations from a re-analysis of the deposited data

How the results depend on the processing

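Of 733 values recomputed under other settings, 252 were log2 ratios of segments, of which 21, of 10 segments, changed sign. Of these 252, 34 were recomputed values of segments whose CPM ratio had an interval that left out no difference, and all 34 kept their sign. Trbv20, for which a ratio of call shares is given above, had log2 ratios of -2.79 to 0.88 over 12 alternatives to its CPM ratio. The sign of that ratio thus changed. Of the 733 values, 113 of the main results stayed within their error and 26 moved, and among the other values 528 stayed and 66 moved. No paired analysis was possible because each treatment has 1 library. Settings for calls give no value for CPM ratios or the count of members past 2-fold.

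The log2 ratio of Trdv4 (2.64) was 1.35 with 5 CPM added, 3.46 with each cell thinned to 1000 UMIs, 0.80 as a share of the family's UMIs, 3.29 without cells of 3 or more B cell or Ncr1 UMIs and 4.32 without Ncr1+ cells, the last 2 settings being added after the data were seen. The log2 ratio of Trgv6 (2.95) was 0.52 with 5 CPM added, 1.45 with 1 CPM added, 2.25 with fewer doublets removed and 2.97 at most. The share of Trdv4 among delta calls in ConA Cd3+ cells (83.8%) was 97.8% when a call needed 2 UMIs, 89.3% without Ncr1+ cells, 89.3% when thinned and 79.1% with doublets kept. In untreated cells (48.4%) it was 71.4% (5 of 7) with 2 UMIs and 30% without Ncr1+ cells.

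The count of members past 2-fold (4 of 30) was 2 with at least 2 Cd3 UMIs, 2 of 15 with at least 50 UMIs, 2 without Ncr1+ cells, 2 of 6 when thinned, 1 of 2 without any UMI of another lineage and 53 of 103 with no minimum. Cells without a UMI of another lineage numbered only 56 and 1375 of the Cd3+ cells.

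The share of Trav11 in Zbtb16+ cells was 70% (7 of 10) in the ConA library when thinned, and in the untreated library 75.0% (3 of 4) with 2 UMIs and 0% of 2 calls without other lineages. In Zbtb16- cells its share (2.84% and 4.19%) was 6.70% and 7.89% when Zbtb16 needed 2 UMIs, 9.80% and 11.3% when thinned, and in the ConA library 7.14% with 2-UMI calls and 9.09% without other lineages. The share of Trbv13-2 in Zbtb16+ cells was 10.0% (2 of 20) without other lineages and 6.25% (1 of 16) when thinned in the ConA library, and 0% of 3 calls with 2 UMIs and 0% of 4 when thinned in the untreated one. With 2-UMI calls its share in Zbtb16- cells was 3.70% and 4.76%. Trbv20 in ConA Cd8b1+ cells was 50% (4 of 8) with 2 UMIs and 0% in untreated cells in all 12 settings. The effective number of beta segments in ConA Cd3+ cells (14.4) was 11.2 with 2 UMIs.

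With a segment UMI in 17.9% and 19.4% of Cd3+ cells, most shares by gate rest on few calls, and differences between the 2 libraries cannot be told apart from differences between mice or preparations.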
